A study of Mus musculus with 30 samples.

Results

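The genes described here encode the nuclear part of the mitochondrial respiratory chain and of ATP synthase. They were chosen by symbol, namely every gene whose name begins with Nduf, Uqcr, Atp5 or Cox4 to Cox8, together with Sdha, Sdhb, Sdhc, Sdhd and Cyc1. Of 117 symbols that matched, 96 passed the study's limits on low values (on average more than 20 reads and an FPKM above 0.5) and belong to the 12030 genes tested. FPKM values are scaled to transcript length and library total and allow levels to be compared between genes. The 96 genes comprise 84 subunit genes (37 of complex I, 4 of complex II, 9 of complex III, 17 of complex IV and 17 of complex V), 8 assembly factors of complex I, the ATP synthase inhibitor Atp5if1 and 3 copies or pseudogenes. The other 21 symbols averaged at most 13.5 reads, and 13 of them carry a pseudogene suffix. The remainder include Cox6b2, Cox7b2 and Cox8c, tissue-restricted forms of oxidase subunits.

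RNA of the gastrocnemius muscle with the attached plantaris was sequenced from wild-type C57BL/6J male mice, 1 library per mouse. LD mice (n = 14) were kept on a fixed light-dark cycle with 12 h of light, and ADV mice (n = 16) on a cycle advanced by 8 h every 4 days, in both groups for 64 weeks from an age of 14 weeks. All mice lived singly with a running wheel and had passed 2 weeks in constant darkness before the schedules began, and 2 further LD mice were lost. Tissue was taken over several hours of the light period, when both groups had the same light cycle. The hour at which each mouse was sampled is not stated. Between 18875468.5 and 28512674 read pairs per library were counted on exons. Markers of skeletal muscle fibers summed to between 58654 and 84291 FPKM, so that every library held the labelled tissue, and no library was a copy of another (the closest pair had a chi-square of 10.6 per degree of freedom).

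The respiratory chain passes electrons from NADH (complex I) and succinate (complex II) through ubiquinone, complex III and cytochrome c to oxygen at complex IV, and ATP synthase (complex V) uses the resulting proton gradient to make ATP. A few hydrophobic core subunits are encoded by mitochondrial DNA, and all others by nuclear genes whose products are imported. In skeletal muscle these genes are known to be higher in oxidative than in glycolytic fibers, and several oxidase subunits exist in a form found in most tissues and a second form of heart and skeletal muscle.

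The promoters of 2 such pairs of complex IV are shown because Cox6a1 and Cox8a had the largest rises of the 96 genes. Bases upstream of the transcript start of the deposited tables were read 5′ to 3′ from GRCm39, all on the minus strand. Capitals mark matches, on either strand, to GCGCNTGCG (NRF1), CTAAAAATA (MEF2) or CAGCTG (an E-box). The stretches of Cox6a1 and Cox8a end 17 bases before the start, and those of Cox6a2 and Cox8b 1 base before it. Cox6a1 and Cox6a2 encode the general and the muscle form of one subunit, and Cox8a and Cox8b those of another. The windows are chr5:115487057-115487220, chr7:127805560-127805739, chr19:7194998-7195161 and chr7:140480360-140480539.
Cox6a1: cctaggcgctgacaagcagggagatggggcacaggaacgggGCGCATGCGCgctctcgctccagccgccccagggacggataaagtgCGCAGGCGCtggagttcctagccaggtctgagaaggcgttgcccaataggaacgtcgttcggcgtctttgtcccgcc
Cox6a2: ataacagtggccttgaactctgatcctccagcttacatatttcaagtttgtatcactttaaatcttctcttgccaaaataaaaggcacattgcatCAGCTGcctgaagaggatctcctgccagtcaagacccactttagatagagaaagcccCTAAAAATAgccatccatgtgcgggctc
Cox8a: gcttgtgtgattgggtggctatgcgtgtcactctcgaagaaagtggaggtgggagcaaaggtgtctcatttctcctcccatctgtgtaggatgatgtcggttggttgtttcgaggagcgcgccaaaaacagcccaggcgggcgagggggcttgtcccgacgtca
Cox8b: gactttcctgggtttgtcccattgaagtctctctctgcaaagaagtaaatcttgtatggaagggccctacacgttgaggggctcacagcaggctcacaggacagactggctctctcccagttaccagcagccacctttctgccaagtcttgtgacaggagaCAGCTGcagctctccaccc

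The general forms lay behind stretches with more CpG than the muscle forms. There were 16 CpG in the 164 bases shown for Cox6a1 and 10 in the 164 of Cox8a, against 1 in each 180 bases of the muscle forms. Over the window from 250 bases before to 50 after the start, the NRF1 letters were found in 21 of 84 subunit promoters (25%) and in 13.2% of the promoters of all genes tested that had one. The MEF2 letters occurred in 1 subunit promoter, that of Cox6a2 (1.19%, against 0.408% of all), and CAGCTG in 15.5% against 15.2%. The letters CCGGAAGT (GABPA) were present in 7.14% against 7.92%, AAGATGGCG (YY1) in 4.76% against 3.28%, and TCAAGGTCA (the estrogen-related receptors) in 2 subunit promoters (2.38%) against 0.300%. Cox8a had 2 GABPA matches in this wider window, outside the stretch shown. GABPA and YY1 letters can overlap the other motifs, and a match says nothing of binding. The median window held 17 CpG in the subunit genes and 20 in all genes tested, against 30 for Cox6a1, 19 for Cox8a and 2 each for Cox6a2 and Cox8b.

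Transcripts of the respiratory chain were abundant. The 84 subunit genes had LD means from 1.6 FPKM (Cox4i2) to 1236 FPKM (Atp5f1b), with a median of 192 FPKM, and 69 of the 96 genes had an LD mean over 100 FPKM. The summed FPKM of the subunit genes ranged from 17018 to 24185 over the LD mice, with a median of 21578, and from 20266 to 29976 over the ADV mice, with a median of 23169. The groups overlapped, but 15 of 16 ADV mice lay above the LD median. The 5 lowest sums of all belonged to LD mice, and the 2 highest to ADV mice 34 and 31. The whole set of 96 genes took 2.29 ± 0.289% of the reads counted on exons in LD (SD, n = 14) and 2.57 ± 0.239% in ADV (n = 16). In bulk tissue, a different share of oxidative fibers and a different amount of mRNA per fiber cannot be told apart.

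**Figure D1:**
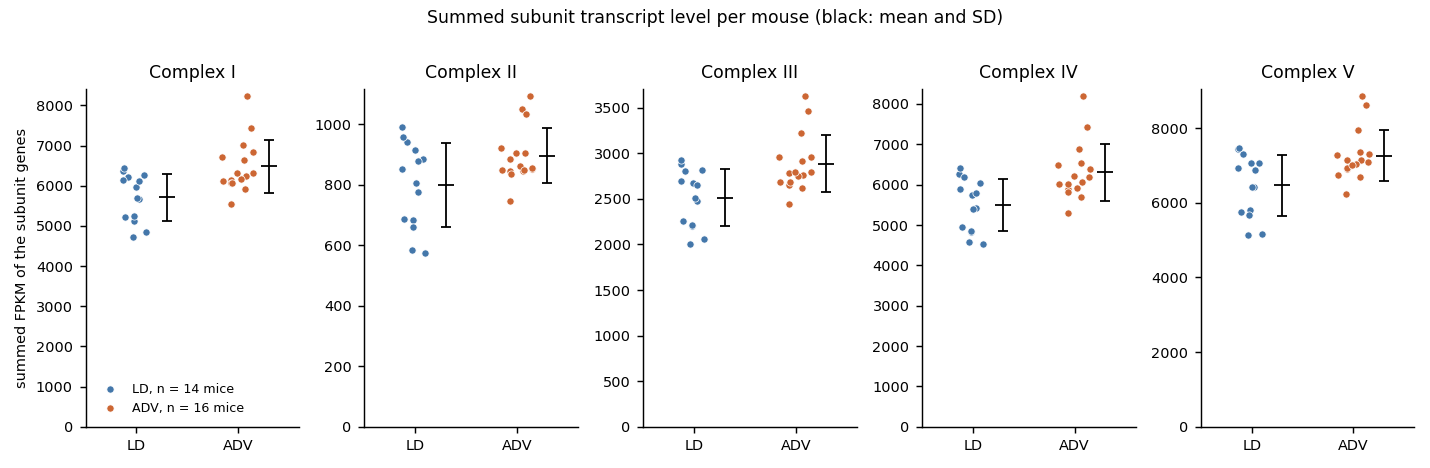
Summed FPKM of the subunit genes of each complex (vertical axis, from 0) per mouse, for 14 LD and 16 ADV mice; black marks give the mean and SD. In each of the 5 complexes 15 of 16 ADV mice lay above the LD median, and the groups overlapped.

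The shares of the complexes were described without a test. Complex I made up 27.3 ± 0.550% of the summed subunit FPKM in LD and 27.2 ± 0.358% in ADV, complex II 3.78 ± 0.237% and 3.76 ± 0.167%, and complex III 12.0 ± 0.112% and 12.1 ± 0.126%. The shares of complex IV were 26.2 ± 0.312% and 26.5 ± 0.402%, and those of complex V 30.8 ± 0.419% and 30.5 ± 0.461%. Within a group the genes varied together from mouse to mouse: the median Pearson correlation of log2 FPKM over the 3486 pairs of subunit genes was 0.88 across the LD mice and 0.79 across the ADV mice, a description of values that share a library. LD mouse 33 had the lowest LD value of 50 subunit genes and LD mouse 23 that of 22, and ADV mouse 23 the lowest ADV value of 63. ADV mouse 34 was the highest ADV mouse for 59 subunit genes. LD mice 23 and 33 also had the lowest slow fiber scores of the 30 libraries (-3.14 and -1.93), a score of slow fiber sarcomere genes, and ADV mouse 34 had the largest share of reads on exons (92.7%).

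The question was whether transcripts of the respiratory chain differed after the long series of phase advances. Of the 96 genes, 41 rose in ADV at an FDR under 0.05 (edgeR quasi-likelihood F test, Benjamini-Hochberg over all genes tested), where 5.61% of all 12030 genes did. None fell by that test, nor by DESeq2, against 5.2% of all genes tested by edgeR, and 0 had an unadjusted p under 0.05 in that direction, against 15%. At an unadjusted p under 0.05, 71 of 96 were higher, against 15.1%. All 84 subunit genes and 94 of the 96 genes had an estimate above 0, against 50.8% of all genes tested. The differences were small: the median log2 fold change was 0.17 (1.12-fold) and that of all genes tested 0.00, the 41 genes rose between 1.10-fold and 1.34-fold, and only Cox6a1 passed the study's fold change limit of 1.3, as did 2.09% of all genes in either direction and 1.45% in that one. The standard errors of the subunit genes ranged from 0.04 to 0.11 on the log2 scale. Just inside the FDR limit lay Atp5me (0.0487) and just outside Ndufs6 (0.0506).

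Several library measures moved with the groups, and their part in the result was not tested beyond the fits that follow. The share of reads on exons was 91.2 ± 0.119% in LD and 91.5 ± 0.373% in ADV. With that share as a covariate 1 of the 96 genes, Cox6a1, kept its call. The median log2 fold change of the 96 was 0.03, against 0.17 without a covariate, and 77 of the 96 estimates were above 0. Of all 12030 genes, 32 were called higher and 13 lower in that fit. The share of reads on exons moved with the group, so the parts of both cannot be told apart. With a score of clock genes as a covariate 0 genes of the whole table were called, and 7 of the 96 were higher at an unadjusted p under 0.05. The median of the 96 was then 0.10, and 86 estimates were above 0. The clock score averaged -1.10 ± 1.21 in LD and 0.97 ± 0.81 in ADV, so it moved with the group, and the parts of both cannot be told apart. With a score of slow fiber genes as a covariate, 8 of the 96 genes were called, where 226 of all 12030 genes were called higher and 207 lower. The median of the 96 was 0.10 in that fit too, and 88 estimates were above 0. No gene of the 96 was called lower in any of these fits. Markers of slow fibers were higher in ADV for 8 of 8 genes, of which Csrp3 alone passed the test, and summed to between 63.2 and 1171 FPKM in LD and between 350 and 2504 in ADV. Adipocyte markers were higher for 7 of 7, of which Fabp4 alone passed, and summed to between 607 and 1119 FPKM in LD and between 678 and 1663 in ADV. The median log2 fold change of the other marker lists ran from -0.32 (leukocytes) to 0.45 (Schwann cells), with -0.02 for fast fibers. In smooth muscle and pericytes 2 of 5 markers rose (Tagln and Higd1b, list median 0.29) and in endothelium 2 of 6 (Pecam1 and Emcn, 0.14). Cidea, of 2 tested markers of brown or beige adipocytes, rose as well, and among 5 fibroblast markers Pdgfra fell (list median -0.12).

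**Figure D2:**
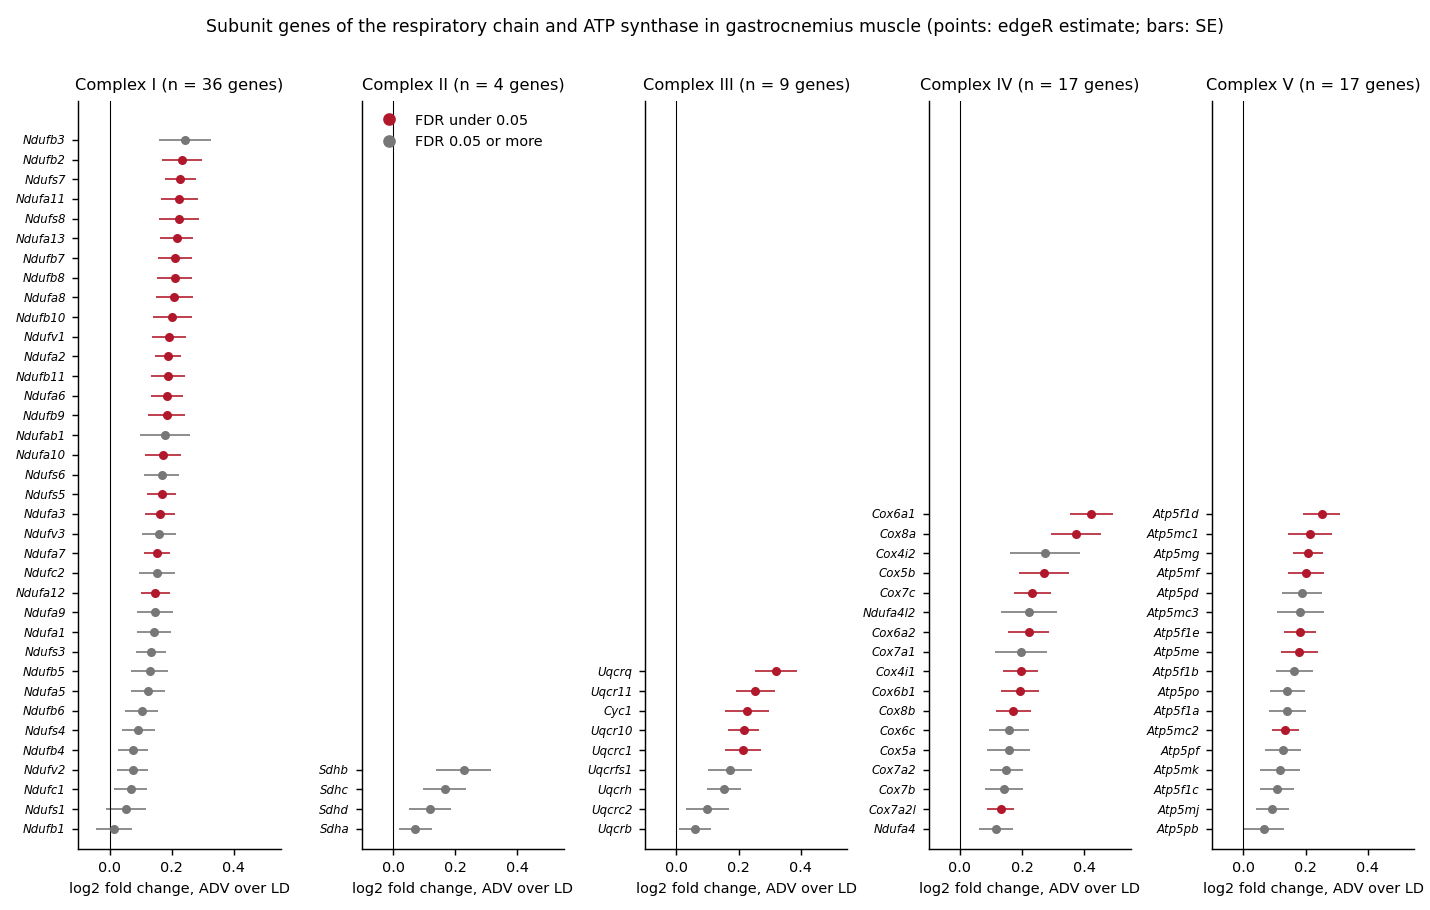
Log2 fold change of ADV over LD (horizontal axis) for the subunit genes of complexes I to V, with bars for the SE of the edgeR fit; red points passed an FDR of 0.05. All 83 points drawn lie above 0, with Cox6a1 the highest at 0.42 and Ndufb1 the lowest at 0.01.

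Complex I takes electrons from NADH. Of its 37 subunit genes 19 rose in ADV, with a median log2 fold change of 0.17 over the complex. They included 16 of 30 accessory subunits and 3 of 7 core subunits (Ndufs7, Ndufs8 and Ndufv1). Ndufs7, which holds the last iron-sulfur cluster before ubiquinone, had between 167 and 207 FPKM in LD (median 193) and between 190 and 295 FPKM in ADV (median 216). It exceeded the LD median in 15 of 16 ADV mice and rose by 0.23 ± 0.05 on the log2 scale (SE, FDR = 0.00525). Ndufv1, the flavoprotein at the entry of the chain, had 194 ± 25.6 FPKM in LD and 224 ± 19.2 in ADV and rose by 0.19 ± 0.05 (FDR = 0.0250). Ndufs1, the largest iron-sulfur subunit, had 139 ± 23.8 and 145 ± 13.3 FPKM and did not pass the test (log2 fold change 0.05 ± 0.07, FDR = 0.618).

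Among the accessory subunits of complex I, Ndufa2 had between 147 and 173 FPKM in LD (median 165) and between 163 and 244 in ADV (median 186). Its coefficient of variation within LD was 5.19%, and 14 of 16 ADV mice exceeded the highest LD mouse. Its log2 fold change was 0.19 ± 0.04 (FDR = 0.00688). Ndufb9 and Ndufb8, parts of the membrane arm and the most abundant subunit transcripts of the complex, had 418 ± 47.2 and 370 ± 42.5 FPKM in LD and 480 ± 61.5 and 433 ± 51.3 FPKM in ADV. Ndufb8 rose by 0.21 ± 0.06 (FDR = 0.0181) and Ndufb9 by 0.18 ± 0.06 (FDR = 0.0435). Ndufb8 shares 68.6% of its exon bases with the same-strand gene model Gm20538, so reads of both cannot be assigned with certainty.

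Complex II, succinate dehydrogenase, is also an enzyme of the citric acid cycle and is encoded by nuclear genes alone. None of its 4 genes passed the test, and 2 had an unadjusted p under 0.05. Sdha, the flavoprotein, had between 223 and 345 FPKM in LD (median 284) and between 269 and 351 in ADV (median 297), with a log2 fold change of 0.07 ± 0.05 (FDR = 0.372). Sdhb, the iron-sulfur subunit, had 307 ± 66.7 and 363 ± 51.1 FPKM (0.23 ± 0.09, FDR = 0.0845). The membrane anchor Sdhc had 61.7 ± 9.62 and 69.9 ± 8.65 FPKM (0.17 ± 0.07, FDR = 0.102). The Sdhb estimate was larger than those of many genes that passed, and its spread was wide, with a coefficient of variation of 21.7% in LD.

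Complex III hands electrons from ubiquinol to cytochrome c, and 5 of its 9 genes rose, with a median log2 fold change of 0.21. Uqcrq, a small subunit near the quinone sites, had between 88.2 and 142 FPKM in LD (median 120) and between 115 and 188 in ADV (median 145). Of the ADV mice 9 exceeded the highest LD mouse, and the gene rose by 0.32 ± 0.07 (FDR = 0.00384), the most of any subunit outside complex IV. Uqcr10 and Uqcr11, the 2 smallest subunits, rose by 0.22 ± 0.05 (FDR = 0.00827) and 0.25 ± 0.06 (FDR = 0.0104), from 360 ± 33 and 357 ± 43.5 FPKM in LD to 423 ± 46.3 and 431 ± 59.3 in ADV. Of the catalytic subunits, Cyc1 (cytochrome c1) rose by 0.23 ± 0.07 (FDR = 0.0378), and Uqcrfs1, the Rieske iron-sulfur protein, had 212 ± 37.3 and 241 ± 30.2 FPKM without passing (0.17 ± 0.07, FDR = 0.107). Uqcrh, the hinge protein and most abundant transcript of the complex, had 385 ± 39.9 and 432 ± 51.3 FPKM (FDR = 0.0618).

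Complex IV, cytochrome c oxidase, reduces oxygen, and its catalytic subunits are encoded by mitochondrial DNA. The median log2 fold change of its 17 nuclear genes was 0.20, 9 rose, and all 17 were higher at an unadjusted p under 0.05. Cox6a1 had the largest difference of the 96 genes. It was measured at between 14.6 and 26.2 FPKM in LD (median 22.7) and between 24.2 and 39.6 FPKM in ADV (median 28.6). All 16 ADV mice lay above the LD median, 12 of them above the highest LD mouse, and 11 of 14 LD mice lay below the lowest ADV mouse. The log2 fold change was 0.42 ± 0.07 (1.34-fold, FDR = 0.00101). With the clock score as a covariate it was 0.33 (FDR = 0.209), with the slow fiber score 0.39 (FDR = 0.00688) and with the share of reads on exons 0.35 (FDR = 0.0490).

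Cox8a followed, with between 25.0 and 42.5 FPKM in LD (median 35.5) and between 32.3 and 63.3 in ADV (median 46.7). Of the ADV mice 11 exceeded the highest LD mouse, and the gene rose by 0.37 ± 0.08 (1.295-fold, FDR = 0.00442). Cox5b, a subunit on the matrix side, rose by 0.27 ± 0.08 from 274 ± 42.9 to 335 ± 58.1 FPKM (FDR = 0.0287). Cox4i1, an early subunit of assembly that binds ATP, rose by 0.20 ± 0.06 from 560 ± 60.1 to 647 ± 74.4 FPKM (FDR = 0.0264). Ndufa4, long counted with complex I and now placed in complex IV, had 490 ± 59.3 and 536 ± 50.8 FPKM and did not pass (0.12 ± 0.05, FDR = 0.147).

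**Figure D3:**
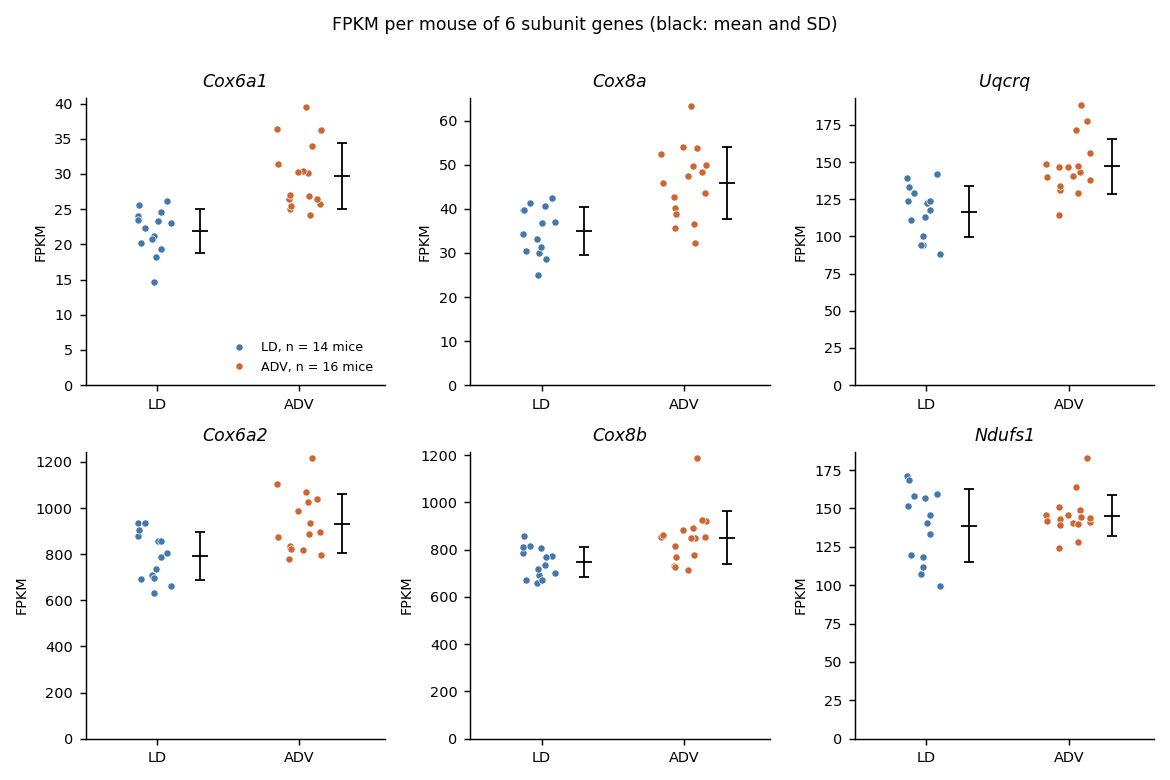
FPKM (vertical axes, from 0) per mouse of Cox6a1, Cox8a, Uqcrq, Cox6a2, Cox8b and Ndufs1 in 14 LD and 16 ADV mice, with the mean and SD in black. The lowest ADV mouse stood at 24.2 FPKM for Cox6a1, above 11 of 14 LD mice, while the groups lay over each other for Ndufs1.

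The muscle forms of these subunits were far more abundant. Cox6a2 had between 631 and 936 FPKM in LD (median 796) and between 781 and 1216 in ADV (median 892), and rose by 0.22 ± 0.07 (FDR = 0.0316). Cox8b had between 659 and 858 FPKM in LD (median 751) and between 716 and 1189 in ADV (median 852), and rose by 0.17 ± 0.06 (FDR = 0.0415). Cox6a2 made up 97.3 ± 0.394% of the summed FPKM of the Cox6a pair in LD and 96.9 ± 0.467% in ADV, and Cox8b 95.5 ± 0.625% and 94.9 ± 0.804% of the Cox8 pair.

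Ratios within a library do not depend on its depth, and 7 pairs of exchangeable forms were compared by a two-sided permutation test of the mean log2 ratio, adjusted over the 7 pairs. The log2 ratio of Cox6a2 to Cox6a1 averaged 5.18 ± 0.22 in LD and 4.97 ± 0.21 in ADV, a difference of -0.20 ± 0.08 (SE, permutation p = 0.0147, adjusted p = 0.0712), and 14 of 16 ADV mice were below the LD median. The log2 ratio of Cox8b to Cox8a averaged 4.43 ± 0.22 and 4.22 ± 0.24, a difference of -0.21 ± 0.08 (permutation p = 0.0203, adjusted p = 0.0712), with 12 of 16 ADV mice below the LD median. Neither passed after adjustment. Since Cox6a1 and Cox8a had the largest rises of the 96 genes and stand in the denominators, these 2 ratios are not independent of the tests above.

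The other 5 ratios did not pass either, with permutation p from 0.214 to 0.476. Cox7a1, the muscle form, made up 69.6 ± 2.10% of its pair with Cox7a2 in LD and 70.4 ± 1.38% in ADV, and the log2 ratio differed by 0.06, with an approximate interval of 2 SE from -0.03 to 0.15. Cox7a1 itself had 382 ± 69.8 and 443 ± 68.6 FPKM (FDR = 0.112) and Cox7a2 165 ± 18.0 and 185 ± 19.6 FPKM (FDR = 0.0614). Cox4i2, a form that responds to low oxygen, was rare beside Cox4i1, at 1.6 ± 0.332 and 1.95 ± 0.395 FPKM (FDR = 0.104), and the log2 ratio differed by 0.08 (interval from -0.14 to 0.29). Ndufa4l2, also known as a gene induced by low oxygen, had 4.41 ± 0.837 and 5.19 ± 0.823 FPKM (FDR = 0.1004), and its log2 ratio to Ndufa4 differed by 0.11 (interval from -0.09 to 0.31).

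**Figure D4:**
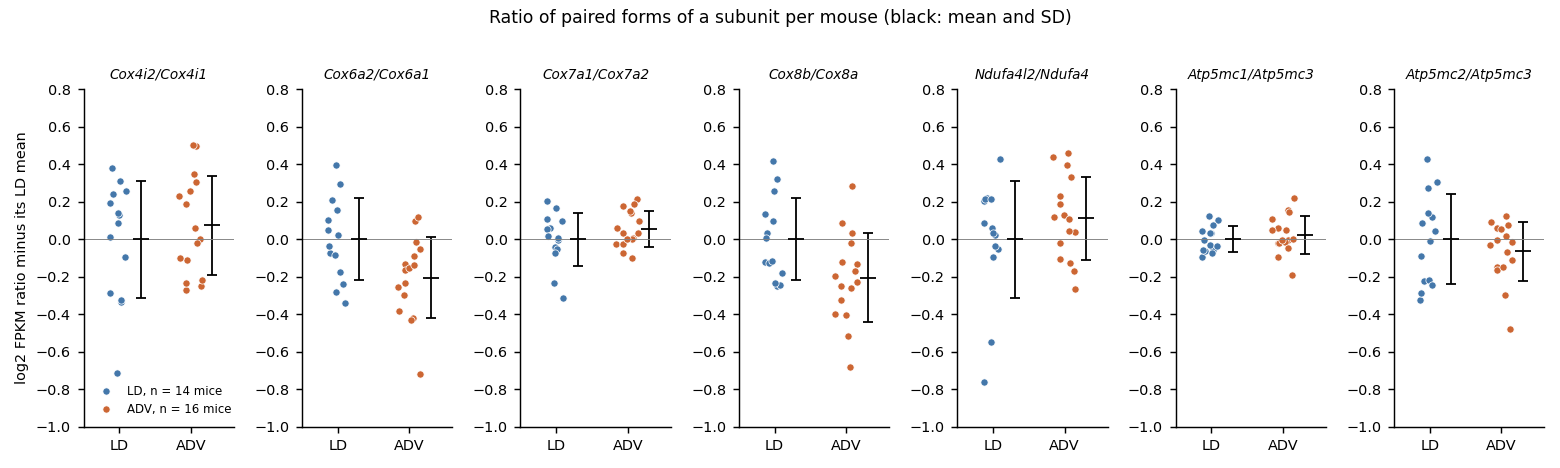
Log2 FPKM ratio of 7 pairs of subunit forms per mouse, minus the LD mean of the pair (vertical axis), with the mean and SD in black for 14 LD and 16 ADV mice. The ADV means of Cox6a2/Cox6a1 and Cox8b/Cox8a lie 0.20 and 0.21 below the LD means, with overlap between the groups.

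Complex V makes ATP. Of its 17 subunit genes 7 rose, with a median log2 fold change of 0.16: 2 of 5 in the F1 part with the catalytic sites, 2 of 3 encoding the rotating c ring, 3 of 5 small membrane subunits and 0 of 4 in the peripheral stalk. Atp5f1b and Atp5f1a, the β and α subunits around the catalytic sites, were the 2 most abundant transcripts of the 96 genes in LD. Atp5f1b had between 972 and 1482 FPKM in LD (median 1275) and between 1174 and 1675 in ADV (median 1368), with a log2 fold change of 0.16 ± 0.06 (FDR = 0.0679). Atp5f1a had 820 ± 119 and 913 ± 74.0 FPKM (0.14 ± 0.06, FDR = 0.111). Neither passed the test, though each lay above the LD median in 15 of 16 ADV mice. Atp5f1d, the δ subunit of the central stalk, rose by 0.25 ± 0.06 from 178 ± 19.4 to 214 ± 28.8 FPKM (FDR = 0.00900). Atp5mg, a membrane subunit at the interface of dimers, rose by 0.21 ± 0.05 (FDR = 0.00904). It had between 160 and 225 FPKM in LD (median 204) and between 207 and 285 in ADV (median 225), and all 16 ADV mice lay above the LD median.

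The 3 c-ring genes encode the same mature protein with different import signals. Atp5mc3 was the most abundant, at 499 ± 91.8 and 572 ± 68.5 FPKM (FDR = 0.105). Atp5mc2 rose by 0.13 ± 0.04 from 102 ± 6.59 to 113 ± 9.86 FPKM (FDR = 0.0416) and Atp5mc1 by 0.21 ± 0.07 from 62.7 ± 10.4 to 73.4 ± 8.93 FPKM (FDR = 0.0466). Atp5mc1 took 11.2 ± 0.478% of its pair with Atp5mc3 in LD and 11.4 ± 0.711% in ADV, and Atp5mc2 17.2 ± 2.39% and 16.5 ± 1.45% of its pair. Atp5if1, which blocks ATP hydrolysis by the enzyme, had 18.4 ± 1.78 and 20.1 ± 2.57 FPKM and did not pass (0.11 ± 0.06, FDR = 0.169).

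The 8 assembly factors of complex I, which build the complex without staying in it, were far less abundant, and their median log2 fold change was 0.06. Ndufaf8 alone rose, by 0.32 ± 0.08 (FDR = 0.00999), from between 6.68 and 12.4 FPKM in LD (median 10.7) to between 10.7 and 18.4 in ADV (median 13.3). It shares 33.4% of its exon bases with Tepsin on the other strand, which rose as well, by 0.23 ± 0.08 (FDR = 0.0415). Cox6c2, by its name a relative of Cox6c and with 230 bases the shortest of the 96 transcripts, had 4.03 ± 1.38 and 4.15 ± 1.23 FPKM (FDR = 0.929). Among 49 tested assembly factors of the chain outside the symbol rule, 6 rose and 0 fell, where 5.61% of all genes tested rose and 5.2% fell. Their median was 0.07, and 0.02 with the trend of transcript length removed. Cox14, needed for the synthesis of a catalytic oxidase subunit, rose by 0.16 ± 0.04 (FDR = 0.00729), Sco2, which delivers copper to the oxidase, by 0.30 ± 0.08 (FDR = 0.0160), and Fmc1, an assembly factor of ATP synthase, by 0.21 ± 0.06 (FDR = 0.0267).

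The 13 transcripts of mitochondrial DNA that encode the partner subunits pointed the other way, with 0 of 13 above 0, a median of -0.17 and none past the test. The 6 with a mean under 1000 reads (44.9 to 442) had a median of -0.32, and the 7 with more reads one of -0.08. mt-Nd6 had the smallest p of them (98.7 ± 24.8 and 82.6 ± 14 FPKM, log2 fold change -0.27 ± 0.11, FDR = 0.0987). mt-Co1 had 23139 ± 5314 and 22147 ± 4326 FPKM (FDR = 0.688). The difference between the nuclear and the mitochondrial genes was not tested. Genes of mitochondrial DNA took 10.4 ± 2.0% of the counts in LD and 9.85 ± 1.68% in ADV.

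Neighbouring steps of the pathway were read from lists of their genes. Of all genes tested, 5.61% rose, 5.2% fell and 50.8% had an estimate above 0. Of 14 enzymes of the citric acid cycle all had an estimate above 0, with a median of 0.11, and 3 rose: Mdh2 by 0.18 ± 0.05 (FDR = 0.0292), Idh3b by 0.18 ± 0.06 (FDR = 0.0349) and Idh3g by 0.14 ± 0.04 (FDR = 0.0354). Of 14 genes of the electron carriers, Etfb, which passes electrons from fatty acid oxidation to ubiquinone, rose by 0.29 ± 0.07 (FDR = 0.0133), and Coq10b, a ubiquinone-binding protein, fell by 0.59 on the log2 scale (SE 0.20, FDR = 0.0482), a call lost in 25 of 30 fits that left out 1 library. Of 12 regulators of mitochondrial genes, 3 rose, with a median of 0.08 over the list. The nuclear receptors Esrra and Esrrb rose by 0.24 ± 0.06 (FDR = 0.0135) and 0.51 ± 0.16 (FDR = 0.0396), and Polrmt, the mitochondrial RNA polymerase, by 0.16 ± 0.05 (FDR = 0.0367). Ppargc1a, the coactivator PGC-1α, had 9.22 ± 3.76 and 13.5 ± 6.54 FPKM and did not pass (0.54 ± 0.23, FDR = 0.112).

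Respiratory chain transcripts are short, and the comparison depended on length. The median length of the 96 transcripts was 772 bases, against 2791 bases for all genes tested, and 68 of them were under 1200 bases, as were 13% of all genes tested. Over all genes the log2 fold change was larger for short transcripts (Spearman's rho across genes -0.29), and within the 96 the relation was weaker (-0.12). Genes are not independent replicates, and no p was computed. In the band from 600 to 800 bases the median log2 fold change was 0.19 over 22 respiratory chain genes and 0.09 over 305 others. From 1200 to 2000 bases, the medians were 0.15 over 19 genes and 0.04 over 2268, and from 2000 to 4000 bases 0.14 over 7 genes and 0.00 over 4717. The 2 genes over 4000 bases were Atp5mc1, with 4706 bases the longest of the 96, and Ndufb2, and both rose, with a median of 0.22, while 3454 others had a median of -0.06.

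The median of the 96 was above that of the other genes in all 7 bands of length. When the trend of each library with transcript length was removed, 14 of the 96 genes were called in place of 41, the median fell to 0.08 and 86 of 96 estimates were above 0. By complex that median was 0.08 for I, 0.11 for II, 0.12 for III, 0.11 for IV and 0.09 for V, and 5, 0, 3, 2 and 3 subunit genes were called. Of all 12030 genes tested, the fit without the length trend called 513 higher and 614 lower, where the fit reported called 675 and 626. Cox6a1, Cox8a and Uqcrq were among the genes called, with log2 fold changes of 0.33 (FDR = 0.00257), 0.28 (FDR = 0.0129) and 0.26 (FDR = 0.00739). The median GC content was 50.4% in the 96 genes and in all genes tested, but removing its trend left 18 calls and a median of 0.14. Cox6a1 and Cox8a, with the largest rises, had 58.8% and 58.6%. Ndufb1, the lowest subunit, had 40.8%, while Ndufb3 with 44.1% had an estimate of 0.24. Among the named genes, members and related, 20 lost their call in the GC fit, 3 gained one and 25 stayed the same. Atp5f1d was among those that lost it (log2 fold change 0.14, FDR = 0.114). Without the GC trend, 293 of all genes tested were called higher and 310 lower.

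**Figure D5:**
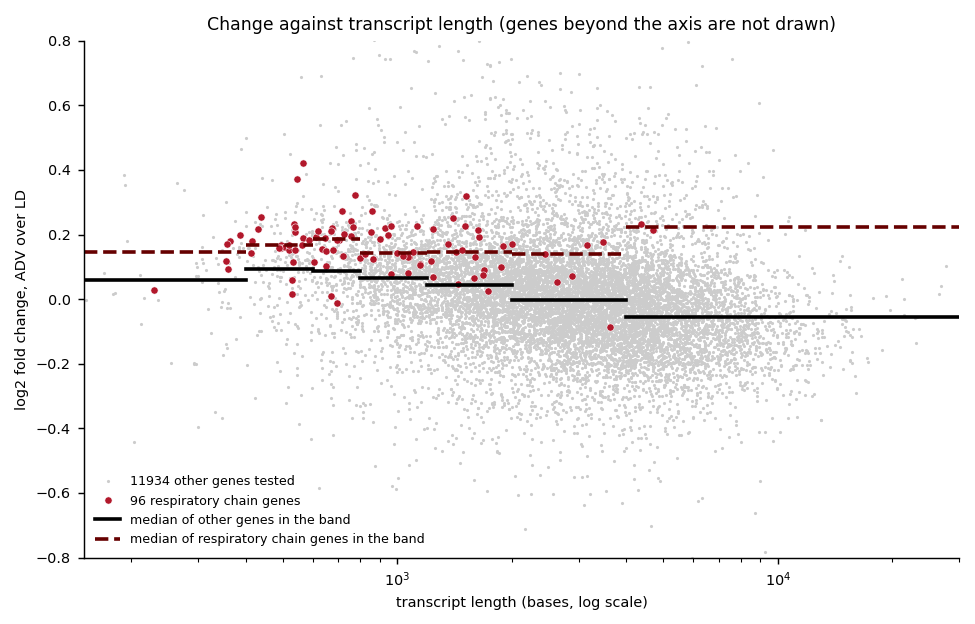
Log2 fold change of ADV over LD (vertical axis) against transcript length in bases (horizontal axis, log scale) for 96 respiratory chain genes in red and 11934 other genes in grey. In all 7 length bands the dashed median of the respiratory chain genes lies above the solid median of the others, and the solid line falls from 0.09 between 400 and 600 bases to -0.06 over 4000.

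Several genes lie in crowded parts of the genome. In a later annotation of the same build (GENCODE vM39), 51 of the 96 share exon bases with a gene on the other strand and 4 with one on the same strand, 28 of them over more than 20% of their exon bases. The sources used here do not give the strand setting of the counting. Ndufs7 shares 47.5% of its exon bases with Gamt, which had 6.81 ± 1.26 and 6.98 ± 1.99 FPKM (FDR = 0.940), and Cox8b 57.3% with Psmd13, which had 29.8 ± 1.39 and 31 ± 2.47 FPKM (FDR = 0.503). These 2 partners were far below the respiratory chain gene they overlap. Other genes named as rising overlap as well. Ndufb9 shares 46.3% of its exon bases, with genes on the other strand and with Gm49356 on the same strand. Uqcr10 shares 43.5%, Uqcr11 35.3% and Atp5mg 25.4% with genes on the other strand. The levels of these partners are not given here, and the part of the overlaps was not tested. Cox6a1, Cox8a, Uqcrq, Cox5b and Atp5f1d share no exon bases with another gene of that annotation.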

How the data were processed

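RNA was poly(A)-enriched and sequenced as stranded paired-end libraries. After trimming with Trimmomatic, the authors aligned reads to GRCm39 by STAR (2.7.10a per the labels), dropped those of mapping quality under 10, which can cost genes with close pseudogenes, and counted the rest on exons with HOMER 4.11. The deposited estimated counts are not normalized and hold each mate as 0.5 read (14.8% were not whole), so they were rounded. The deposited FPKM were made by the authors from these counts, exon length and library total. Columns were matched to mice by their labels, and the longest row of a symbol passing the filter was kept.

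Counts were tested with edgeR 4.0.16 (TMM, quasi-likelihood F test, ADV against LD) in R 4.3.3, with Benjamini-Hochberg adjustment over 12030 genes. Alternatives used DESeq2 1.42.0 and limma 3.58.1. Ratios of forms were tested by 100000 permutations of the mice (scipy 1.17.1). The edgeR, DESeq2 and limma fits and the removal of the length trend were tested on simulated counts. Promoters were read from GRCm39 at the starts given in the tables. Named genes were, per complex, the 2 most abundant and the 2 with the smallest p, the largest changes, the paired forms, catalytic subunits, the shortest and longest transcripts and called genes of related lists. Ppargc1a, mt-Co1, mt-Nd6, Ndufb1, Ndufb2, Ndufs8, Cox7a2l, called cell type markers, Ndufs6, Atp5me and genes overlapping a member were named after their values were seen. The values of 1 subunit gene are not reported here. The members, lists and tests were chosen with earlier results of these data known. Whether label numbers shared by 14 pairs of mice link them is not stated, and the fit reported did not use them. Correlations of deviations within these pairs ran from -0.28 to 0.47, and 6 of 14 exceeded 0.1, which cannot decide it.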

Additional observations from a re-analysis of the deposited data

How the results depend on the processing

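The count of 41 respiratory chain genes higher in ADV was 41 to 49 with DESeq2, its size factors, library size alone, the stricter filter, summed rows, limma on log2(FPKM + 0.1 or 1) and without the mitochondrial genome genes. It was 16 with no filter on low genes (33099 tested), 14 with the length trend removed, 18 with the GC trend removed, 8 with the slow fiber score, 0 with the clock score, 1 with the share of reads on exons as a covariate and 1 with the fold change limit of 1.3. The cause was not tested, except that more genes are adjusted over without a filter. Leaving out 1 library gave 27 (without LD mouse 28) to 49 (without ADV mouse 23), and a median of 0.13 to 0.18. The median was 0.14 with the GC trend removed and 0.08 with the length trend removed, with 96 and 86 of 96 estimates above 0. It was 0.10 with the clock score, 0.10 with the slow fiber score and 0.03 with the share of reads on exons. In those covariate fits 86, 88 and 77 estimates were above 0. No setting called a respiratory chain gene lower in ADV at an FDR under 0.05. Over all genes, library size alone gave 775 higher and 466 lower and limma on log2(FPKM + 0.1) 860 and 448, where the fit reported gave 675 and 626. The calls higher in ADV over all genes numbered 344 with no filter, 513 with the length trend removed and 293 with the GC trend removed. They numbered 226 with the slow fiber score, 0 with the clock score and 32 with the share of reads on exons.

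With the label number as a replicate block, 24 genes were called over 28 libraries, and 17 over these libraries without the block. Over all genes tested, 287 were called higher with the block and 331 without it. Of the 14 LD mice, 3 correlated best with the ADV mouse of their own number. These checks cannot decide whether the numbers link mice.

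With 1 library left out the log2 ratio of Cox6a2 to Cox6a1 ranged from -0.23 to -0.17 and passed an adjusted p of 0.05 without LD mouse 23, 26 or 31 or ADV mouse 21 or 31, and that of Cox8b to Cox8a from -0.24 to -0.17, passing without LD mouse 26 or 31 or ADV mouse 21, with adjusted permutation p from 0.0260 to 0.145 for both. The other 5 ratios, and the TMM-normalized CPM, pseudocount, rank-sum and block alternatives of all 7, stayed on their side of the threshold.

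The log2 fold change changed sign for Cox6c2 with the slow fiber score (-0.0099), with the length trend removed (-0.0501) and in 5 of 30 fits without 1 library (-0.0376 to 0.0939, below 0 without LD mice 23 and 31 and ADV mice 26, 29 and 31), for Ndufs1 with the clock score (-0.0371) and slow fiber score (-0.0313), and for Atp5if1 with the share of reads on exons (-0.0245). None of these genes was called. Of the genes named as rising, 30 fits without 1 library each left Cox6a1, Cox8a and Uqcrq called (FDR at most 0.00982), while Atp5mc1 lost its call in 17, Ndufb9 in 15, Atp5mc2 and Cox8b in 12, Cyc1 in 9, Cox6a2 in 4 and Cox5b in 1 (without LD mouse 28), with FDR at most 0.0790. Of the related genes, Coq10b lost its call in 25 of these fits, Esrrb in 13, Polrmt in 10, Idh3g in 9, Idh3b in 8 and Mdh2 and Fmc1 in 1 each (without LD mouse 28). More named genes, members and related, lost their call in other fits. They numbered 31 with the clock score, 30 with the share of reads on exons and 21 with the slow fiber score. Removing the GC trend cost 20 their call, and removing the length trend 14. The percent on exons, the 28 libraries without the block and the fit without mitochondrial genes were chosen after seeing the data. The smallest log2 fold change called among the 96 genes was 0.13 (Cox7a2l). Some larger estimates did not pass, such as those of Atp5f1a (0.14), Sdhb (0.23) and Cox4i2 (0.27).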
